A study of Homo sapiens with 8 samples.

Results

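Nonmuscle myosin and actin crosslinker genes were examined for RNA contacts of RBFOX2 in HEK293T cells, a human embryonic kidney line. The group holds 9 genes. MYH9, MYH10 and MYH14 encode the heavy chains of nonmuscle myosin II, ACTN1 and ACTN4 encode alpha-actinins, FLNA encodes filamin A, and TPM1, TPM3 and TPM4 encode tropomyosins. A called peak, meaning any peak in a deposited list, was assigned to one of these genes when its midpoint lay in the RefSeq span of the gene (GRCh38) on the strand of the gene. By this rule 1466 of 1118316 called peaks belonged to the 9 genes. They were 357, 356, 367 and 386 peaks in replicates 1 to 4, out of 267691, 281701, 288305 and 280619.

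The series holds 8 samples of the same line, 4 libraries of RNA immunoprecipitated with RBFOX2 (IP) and 4 of input RNA, with replicates 1 to 4 of each. The labels give no genotype, treatment or time that differs between samples, so IP against input is the sole contrast. The cells were crosslinked with 254 nm light at 400 mJ/cm2, and 2% of the material was set aside as input for its own IP. Nothing in the labels says that the 4 replicates came from separate cultures, so a p-value over them measures only the spread between these samples.

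RBFOX2 is a splicing regulator that binds RNA through GCATG, most often as TGCATG. Where it binds relative to an alternative exon is known to decide whether the exon is kept or skipped. RBFOX proteins are known to act on a neuron-specific exon of MYH10. Nonmuscle myosin II pulls on actin filaments, alpha-actinins and filamin A tie filaments together, and tropomyosins run along the filament and govern which myosins reach it. In eCLIP, ultraviolet light crosslinks a protein to the RNA it touches, and RNA recovered with the protein is compared with input RNA.

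Sequence was at hand only for short windows around annotated start sites, mostly upstream of them (RefSeq, GRCh38.p14), so the peaks of FLNA and ACTN4 described below are given by position alone. The 9 genes have 16 such windows. GCATG was searched on both strands, and it lay upstream of the start site on the gene's strand in 3 windows and on the opposite strand in 3. Of all 35116 windows, 19.6% held it on the gene's strand and 19.1% on the opposite one, against 18.75% of the 16 for either strand. TGCATG, which contains GCATG, was in 5.23% of all windows on the gene's strand. The 3 windows of these genes all lie inside the span of a longer transcript, so they lie within transcribed sequence. The stretch around each match is shown, 5′ to 3′ on the gene's strand with GCATG in capitals, because it is the RBFOX motif in the only member sequence available here.
TPM3, chr1:154178307-154178411, minus strand: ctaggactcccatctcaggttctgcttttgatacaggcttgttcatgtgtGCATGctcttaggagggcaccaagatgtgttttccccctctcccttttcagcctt
ACTN1, chr14:68938114-68938201, minus strand: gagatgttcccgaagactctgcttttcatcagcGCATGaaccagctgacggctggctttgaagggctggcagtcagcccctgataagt
TPM1, chr15:63048261-63048365, plus strand: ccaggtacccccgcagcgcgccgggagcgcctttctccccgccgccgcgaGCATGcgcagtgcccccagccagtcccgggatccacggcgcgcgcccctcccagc
The match in TPM3 is preceded by T, which makes it TGCATG. A called peak lay within 50 nt of it in replicates 1 and 3, at log2 folds of IP over input of 1.00 and 1.59, and in neither replicate was it enriched by the thresholds given next. No called peak lay within 50 nt of the matches in ACTN1 and TPM1. A match is a string of letters, not a binding site.

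Each deposited peak carries the log2 fold of its IP over its input and a −log10 p for that excess. Enriched peaks were those that reached 3 on both scales, which is 8-fold on the first. Enriched peaks were found in FLNA and ACTN4 and in none of the other 7 genes. There were 3, 9, 5 and 5 of them in replicates 1 to 4 (mean 5.5 ± 2.52, SD, n = 4), which is 1.51% ± 0.719 (SD, n = 4) of the called peaks of the 9 genes. Of all called peaks, 0.861%, 0.848%, 0.789% and 0.775% were enriched in the same lists, 0.818% over the 4 together. The share in the 9 genes was below the background in replicate 1, at 0.840%, and above it in the other 3, at 2.53%, 1.36% and 1.30%. Without FLNA the mean was 1.5 ± 1.73 enriched peaks per replicate (SD, n = 4). Over the 4 lists together FLNA held 16 of the 22 enriched peaks but only 93 of the 1466 called peaks. Without it the share of the 4 lists together was below the background of 0.818%.

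Of the 4145 genes with at least as many called peaks over the 4 lists as TPM4, the member with the fewest (66), 17.3% held an enriched peak in any list. Of the 11969 genes with any called peak, 7.94% did. Here 2 of 9 did. A region enriched in all 4 replicates was present in 4.58% of the 4145 genes and 1.94% of the 11969, and among the 9 in FLNA alone. A region enriched in at least 3 replicates was present in 6.61% of the 4145 and 2.86% of the 11969, and among the 9 in FLNA and ACTN4. No test was made of these counts, since the 9 genes were chosen with results of these data known.

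FLNA, on the X chromosome (chrX:154348531-154374634, minus strand), encodes filamin A, which crosslinks actin filaments into networks and anchors them to membrane proteins. It is the shortest of the 9 spans at 26104 nt and had 23, 18, 24 and 28 called peaks. Of these 3, 5, 4 and 4 were enriched, 17.9% ± 6.73 (SD, n = 4). All 16 enriched peaks lay within 2047 nt, at chrX:154355132-154357178, with midpoints 17.5 to 19.5 kb from the start of the span. Their log2 folds ran from 3.09 to 5.09 and their −log10 p from 3.14 to 8.97.

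Enriched peaks that overlapped on the strand were merged into regions, and a region's value in a replicate is the log2 fold of the overlapping called peak whose −log10 p is highest. The FLNA region at chrX:154355540-154355804 was enriched in all 4 replicates, with log2 folds of 5.00, 5.09, 3.81 and 3.37 (mean 4.32 ± 0.86, SD, n = 4). Its −log10 p was 8.10, 8.97, 6.34 and 6.12. The region at chrX:154356646-154356816, about 1 kb towards the start of the gene, was also enriched in all 4, with log2 folds of 5.09, 4.91, 3.50 and 3.27 (mean 4.19 ± 0.94, SD, n = 4). In both regions replicates 1 and 2 lay near 5 and replicates 3 and 4 between 3.27 and 3.81, so the numbered samples split the same way in each.

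The region at chrX:154357077-154357178 was enriched in replicates 2, 3 and 4, at log2 folds of 3.81, 4.32 and 3.09, and stood at 2.00 in replicate 1. The region at chrX:154355132-154355224 was enriched in replicates 2 and 3, at 3.39 and 4.46, with 2.81 and 2.91 in replicates 1 and 4. The last region, chrX:154356104-154356210, was enriched in replicate 4 alone at 4.00, against 1.32, 2.504 and 3.46. The order of the replicates therefore differed from region to region: replicate 1 was highest at 154356646 and lowest at 154357077, 154356104 and 154355132.

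The contrast within the gene was wide. Inside the 2047 nt the median log2 fold was 2.81, 3.28, 3.17 and 2.81 over 9, 10, 13 and 11 called peaks, and each of these peaks was above 0.5. Elsewhere in FLNA the medians were 0.73, 0.87, 0.00 and 0.32 over 14, 8, 11 and 17 peaks. The window was drawn around the enriched peaks, so this is a description with no test.

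ACTN4, on chromosome 19 (chr19:38647649-38731589, plus strand), encodes alpha-actinin 4, which crosslinks actin filaments at stress fibres and at the leading edge of moving cells. It had 44, 46, 45 and 50 called peaks, of which 0, 4, 1 and 1 were enriched, 3.23% ± 3.78 (SD, n = 4). The 6 enriched peaks lay within 1410 nt, at chr19:38711573-38712982, with midpoints 64.0 to 65.3 kb from the start of the span. Their log2 folds ran from 3.001 to 3.91. These 6 peaks also fall in the span of LOC107985291 (chr19:38701924-38728356), whose strand is not in the tables used.

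The ACTN4 region at chr19:38712585-38712706 was enriched in replicates 2, 3 and 4, with log2 folds of 2.6996, 3.55, 3.001 and 3.06 in replicates 1 to 4 (mean 3.08 ± 0.35, SD, n = 4). The −log10 p was 4.23, 7.45, 5.97 and 4.56, so replicate 1 missed the fold limit and not the p limit. The other 3 regions passed in replicate 2 alone. At 38711573-38711648 the log2 folds were 3.58, 3.91, 2.22 and 2.00. At 38712730-38712803 they were 3.32, 3.25, 2.59 and 2.46. At 38712877-38712982 they were 2.58, 3.001, 2.07 and 2.9995, where replicate 4 fell short of both limits with a −log10 p of 2.88.

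The called peaks of the ACTN4 window were all raised, enriched or not. They had medians of 2.58, 2.73, 2.32 and 2.46 on the log2 scale (9, 8, 9 and 12 peaks), and each was above 0.5. The rest of ACTN4 had medians of 0.81, 0.79, 0.59 and -0.000497 (35, 38, 36 and 38 peaks). In ACTN4, 7 called peaks of replicate 4 and 3 of replicate 1 had a log2 fold of at least 2.9 without being enriched, against 1 in replicate 2 and 0 in replicate 3. Their −log10 p ran from 1.41 to 2.88.

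**Figure D1:**
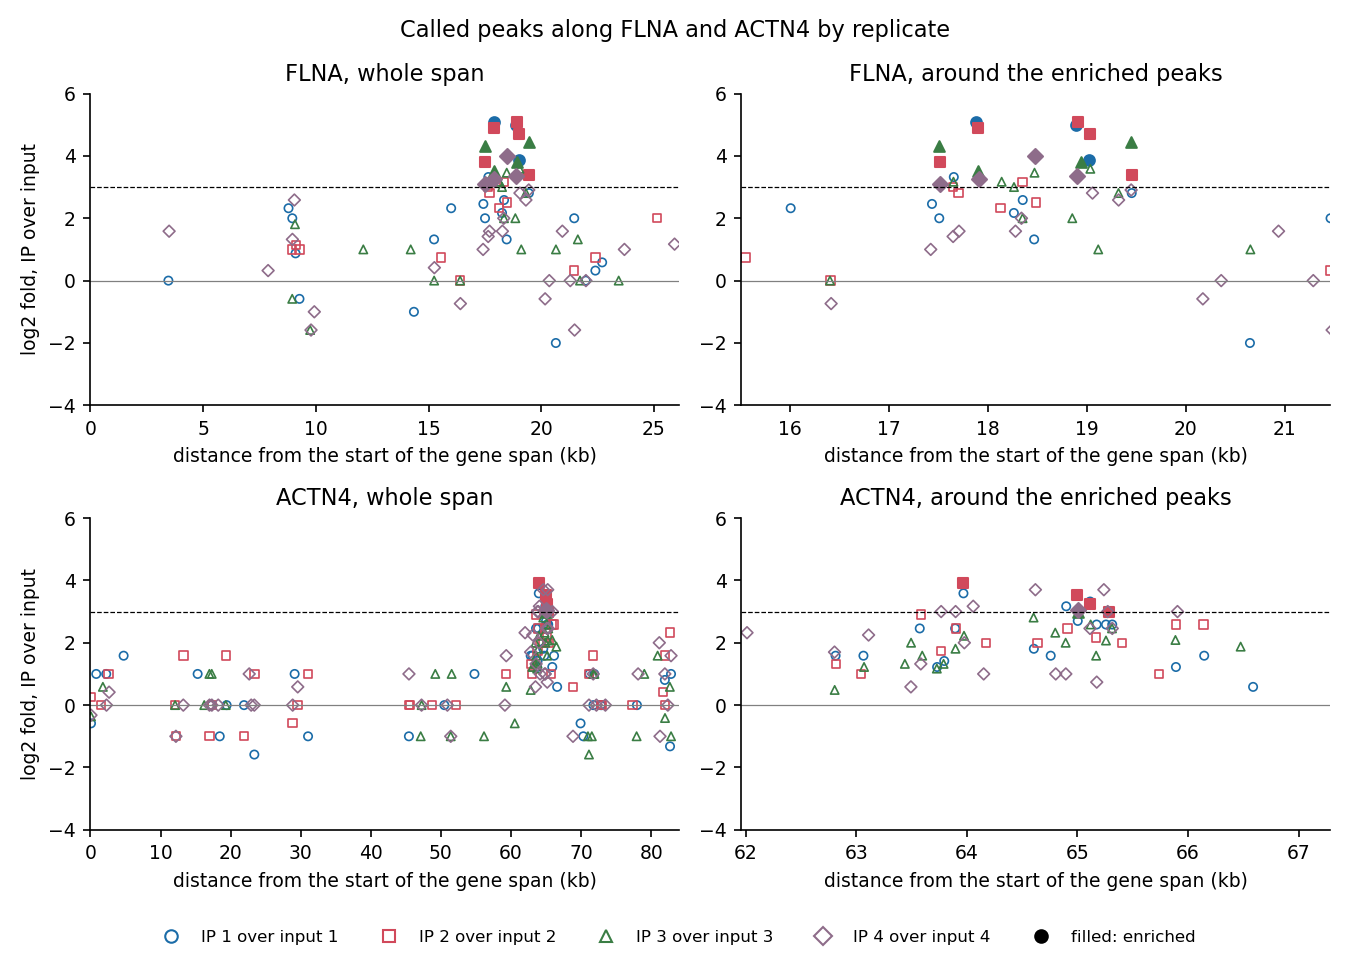
Called peaks of FLNA (top) and ACTN4 (bottom) in the 4 replicates, with log2 fold of IP over input on the vertical axis and distance of the peak midpoint from the start of the gene span in kb on the horizontal axis; the right-hand panels enlarge the stretch around the enriched peaks, filled symbols are enriched and the dashed line is a log2 fold of 3. All 16 enriched peaks of FLNA lie 17.5 to 19.5 kb and all 6 of ACTN4 lie 64.0 to 65.3 kb from the start, and the log2 folds of peaks outside these stretches reach at most 2.58 in FLNA and 2.9995 in ACTN4.

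Of the 9 merged enriched regions of these genes, 2 were enriched in all 4 replicates, 2 in 3, 1 in 2 and 4 in 1. Of all 3371 merged enriched regions, 16.4% were enriched in all 4 replicates and 27.0% in at least 3. Without replicate 1, 4 regions were enriched in each of the remaining 3 replicates. On average 72.0% ± 21.5 (SD, n = 4) of a replicate's enriched peaks in these genes met an enriched peak in a given other replicate. The values were 100% of the 3 peaks of replicate 1, 48.1% of the 9 of replicate 2, 73.3% of the 5 of replicate 3 and 66.7% of the 5 of replicate 4. Neither this sharing nor the count without replicate 1 was computed over all enriched peaks. Whether they are usual for these lists is therefore unknown.

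Across whole genes, the share of called peaks with a log2 fold above 0.5 placed FLNA and ACTN4 apart from the other 7. In FLNA the share was 73.9%, 88.9%, 75.0% and 64.3% (mean 75.5% ± 10.1, SD, n = 4), and in ACTN4 it was 63.6%, 60.9%, 64.4% and 58.0% (mean 61.7% ± 2.92, SD, n = 4). Over all called peaks it was 31.4% ± 1.35 (SD, n = 4), with a background of 31.4% for the lists together. FLNA and ACTN4 overlapped each other, and every replicate of both lay above every replicate of the other 7 genes. Next came MYH9 at 40.4% ± 8.10, MYH10 at 38.8% ± 6.75, TPM3 at 34.1% ± 6.81, ACTN1 at 30.6% ± 6.13, TPM1 at 29.3% ± 5.70, MYH14 at 28.0% ± 6.84 and TPM4 at 19.4% ± 10.1 (SD, n = 4 each). In these 7 the replicates of each gene overlapped those of its neighbour in the order.

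**Figure D2:**
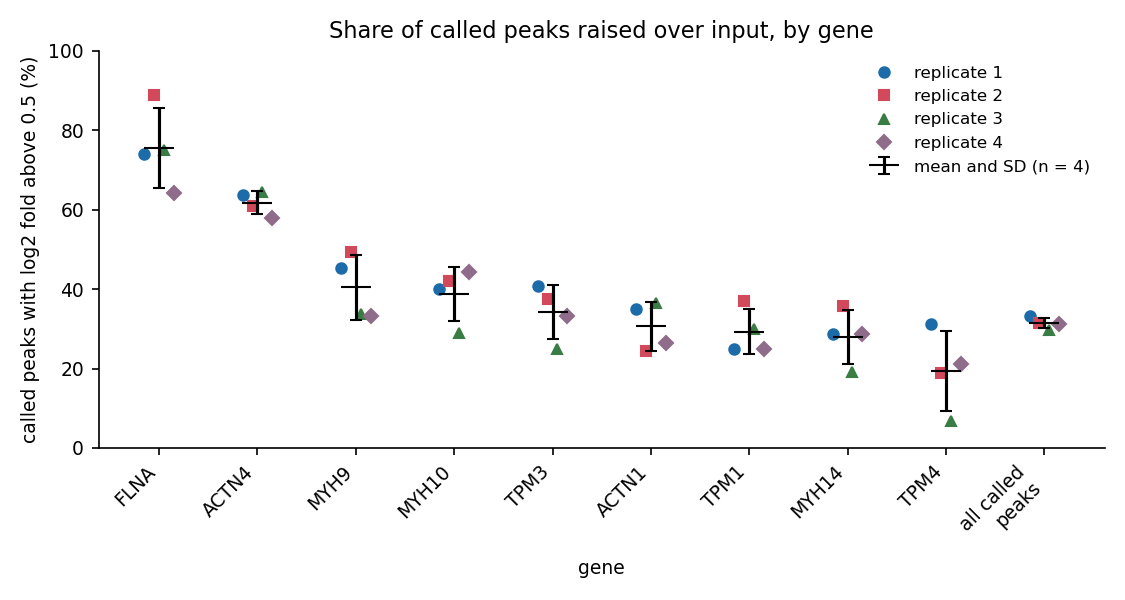
Percent of called peaks with a log2 fold of IP over input above 0.5 in each of the 9 genes and over all called peaks; points are the 4 replicates, and the horizontal mark and bar are the mean and SD (n = 4). FLNA and ACTN4 lie between 58.0% and 88.9%, and no replicate of another gene exceeds 49.3%.

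The median log2 fold of a gene's called peaks gave the same separation. It was 2.00, 2.41, 1.90 and 1.37 in FLNA (mean 1.92 ± 0.43, SD, n = 4) and 1.00 in all 4 replicates of ACTN4. Both genes were above the median of all called peaks in 4 of 4 replicates, with p = 0.13 by an exact two-sided sign-flip permutation test, the smallest p that 4 replicates allow. In the other 7 genes no median was above that of all peaks. TPM1 was at -0.50 in replicate 1 and TPM4 at -0.32 in replicate 3, and the rest were tied with all peaks at the commonest fold of each list, which is close to 0. A tie leaves the test nothing to compare, so it says nothing about these genes.

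The 3 nonmuscle myosin heavy chains had no enriched peak. MYH9 (chr22:36281280-36387967, minus strand) encodes the heavy chain of myosin IIA, and its 75, 67, 77 and 75 called peaks reached a log2 fold of at most 3.46. That peak, in replicate 4 at chr22:36300865-36300924, had a −log10 p of 2.20. MYH10 (chr17:8474212-8630725, minus strand) encodes the heavy chain of myosin IIB, and its 75, 62, 62 and 70 called peaks reached at most 3.001. In replicate 2 the peak at chr17:8513538-8513619 had a log2 fold of 2.59 and a −log10 p of 3.07, the only peak of the 7 genes with a −log10 p of at least 3 and a log2 fold of at least 1. MYH14 (chr19:50203622-50310540, plus strand) encodes the heavy chain of myosin IIC. It had 21, 14, 21 and 14 called peaks, with a highest log2 fold of 2.32 and a highest −log10 p of 0.661.

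ACTN1 (chr14:68874128-68979302, minus strand) encodes alpha-actinin 1, the close relative of alpha-actinin 4 found at stress fibres and adhesions. It had more called peaks than ACTN4, 60, 74, 71 and 72, yet none was enriched and the highest log2 fold was 2.59 with a highest −log10 p of 1.15. The 2 alpha-actinin genes thus differed in the share of peaks above a log2 fold of 0.5, at 24.3% to 36.6% over the replicates of ACTN1 and 58.0% to 64.4% over those of ACTN4, with no overlap.

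No peak of the 3 tropomyosin genes was enriched. TPM1 (chr15:63042747-63071915, plus strand) had 16, 27, 20 and 28 called peaks and a highest log2 fold of 2.00. TPM3 (chr1:154155308-154192100, minus strand) had 27, 32, 32 and 30, with a highest log2 fold of 2.58. TPM4 (chr19:16067538-16103002, plus strand) had 16, 16, 15 and 19, with a highest of 2.00. In TPM4 the peaks below a log2 fold of -0.5 outnumbered those above 0.5 in replicates 2, 3 and 4, at 43.75%, 40% and 26.3% against 18.75%, 6.67% and 21.1%. Replicate 1 went the other way, at 12.5% against 31.25%.

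**Figure D3:**
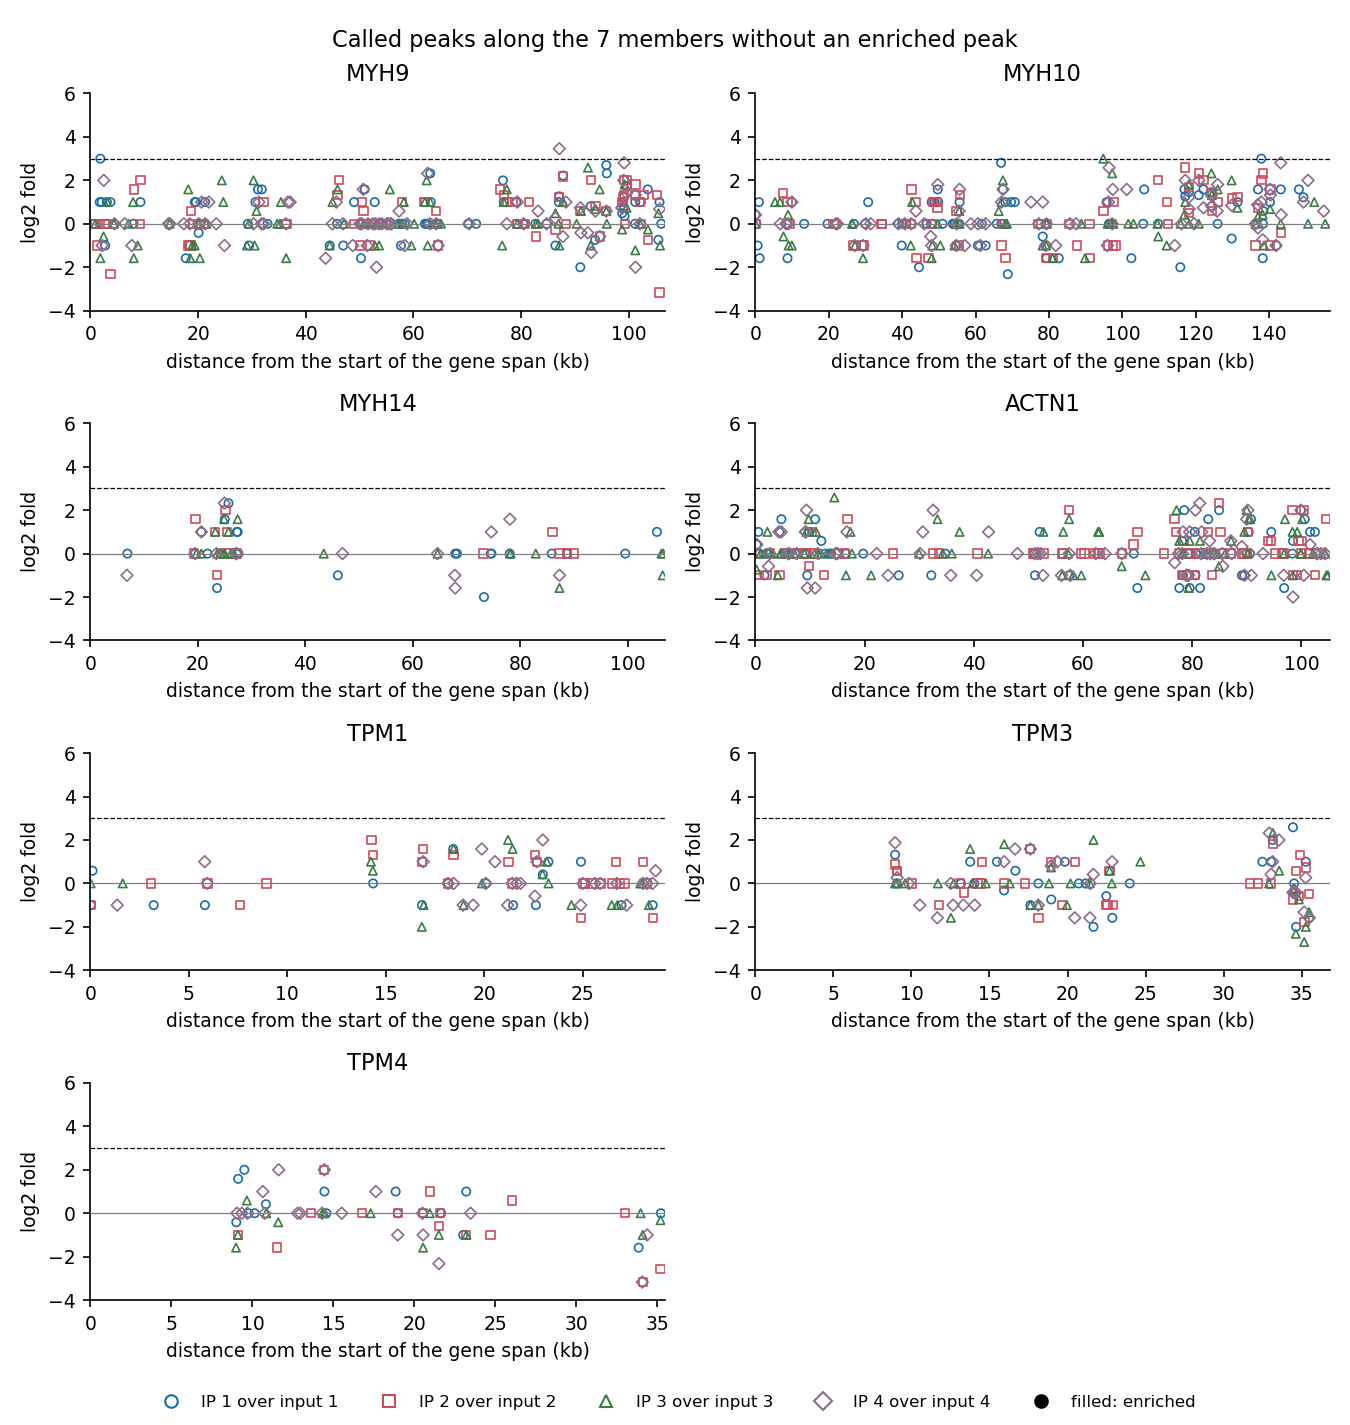
Called peaks of MYH9, MYH10, MYH14, ACTN1, TPM1, TPM3 and TPM4 in the 4 replicates, with log2 fold of IP over input against distance of the peak midpoint from the start of the gene span in kb; the dashed line is a log2 fold of 3. No peak is enriched; the highest, in MYH9, is at a log2 fold of 3.46 with a −log10 p of 2.20.

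The number of called peaks did not follow that order. Per kb of gene span it was highest in FLNA, at 0.891 ± 0.158 (SD, n = 4), followed by TPM3 at 0.822, TPM1 at 0.780, MYH9 at 0.689, ACTN1 at 0.658, ACTN4 at 0.551, TPM4 at 0.465, MYH10 at 0.430 and MYH14 at 0.164. ACTN4 thus had fewer called peaks per kb than 5 of the 9 genes. The lists hold no expression values, so peak number cannot be set against RNA level here. HEK293T-expressed markers VIM, CDH2, INA, PAX2 and KRT8 had 66, 302, 16, 13 and 1 called peaks over the 4 lists. The muscle markers ACTA1, CKM and CNN1, the blood marker PTPRC and the liver marker ALB had 0, and the muscle marker ACTA2 had 4. Of the 8 HEK293T, 8 muscle, 4 blood and 2 liver markers listed, 3, 4, 3 and 1 lacked a known strand and were not analysed. Blood and liver thus rest on 1 gene each.

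Regions with weaker, repeated excess were tested with limma. All called peaks were merged, and each region with a peak in all 4 lists was tested for a mean log2 fold other than 0, with Benjamini-Hochberg adjustment over 49493 regions and a limit of 0.05. Of 853 merged regions in the 9 genes, 82 had a peak in all 4 lists. By limma 26 of the 82 were higher in IP than in input, 1 was lower and 55 passed in neither direction. Of all regions tested, 21.1% were higher and 1.81% were lower. The median over regions of the mean log2 fold was 0.90 in the 9 genes and 0.50 over all.

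FLNA and ACTN4 held 20 of the 26. With both set aside, 6 of 57 regions were higher, 10.5%, below the 21.1% of all regions, and their median was 0.49. At an unadjusted p under 0.05, 37 of the 82 regions were higher, against 32.8% of all regions tested. With 3 replicates instead of 4, limma called 1 of 101 member regions higher without replicate 2, where 2.04% of all regions were, and 5 of 105 without replicate 3, where 3.93% were. It called 0 regions without replicate 1 and 0 without replicate 4, members and all others alike (smallest adjusted p 0.0507 and 0.0506). At an unadjusted p under 0.05 by limma, 33 of 101 member regions were higher without replicate 1, against 22.8% of all regions. Without replicate 4 they were 32 of 104, against 23.4%. No limma call given here therefore survived the loss of each replicate in turn.

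In FLNA 8 of 9 tested regions were higher by limma. Of these 7 lay 17.5 to 19.5 kb from the start of the span, including the pair enriched in all replicates (adjusted p = 0.00496 and 0.00574). The other, chrX:154365457-154365624, lay 9.09 kb from the start, at log2 folds of 0.87, 1.14, 1.81 and 2.58 (mean 1.60 ± 0.76, SD, n = 4, limma adjusted p = 0.0349), and held no enriched peak. Its deposited −log10 p was only 0.48, 0.68, 0.96 and 0.90 in replicates 1 to 4. In ACTN4 12 of 16 tested regions were higher by limma, and all 12 lay 62.8 to 65.9 kb from the start. The lowest adjusted p of the 9 genes was that of the ACTN4 region at 38712585 (limma, 0.00465), and the mean log2 folds of the 12 ran from 1.27 to 3.08.

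Among the myosins, 3 of 21 tested regions of MYH10 (14.3%) and 2 of 9 of MYH9 (22.2%) were higher by limma. Of all regions tested 21.1% were, so neither gene stood out by this count. The MYH10 region with the highest mean, chr17:8513537-8513646, had log2 folds of 1.26, 2.59, 1.00 and 2.00 (mean 1.71 ± 0.72, SD, n = 4, limma adjusted p = 0.0268). At 8512476-8512656 they were 1.46, 1.70, 1.81 and 1.22 (mean 1.55 ± 0.26, limma adjusted p = 0.0135), the narrowest spread of the 3. At 8506396-8506490 they were 1.46, 1.42, 2.32 and 1.32 (mean 1.63 ± 0.47, limma adjusted p = 0.0176). These lie 117 to 124 kb from the start of the span, over LOC102724262, which is annotated on the opposite strand. The 2 regions of MYH9 lie 99.2 and 99.6 kb from its start. At chr22:36288730-36288891 the log2 folds were 0.74, 1.32, 1.81 and 2.81 (mean 1.67 ± 0.88, limma adjusted p = 0.0404). That call was lost with the length-weighted mean fold of the region (mean 1.54, limma adjusted p = 0.0666). Tested against a log2 fold of 1, the calls at 36288730 and at 8513537 of MYH10 were lost (limma adjusted p = 0.429 and 0.313). At 36288319-36288410 the log2 folds were 1.74, 2.00, 0.74 and 1.41 (mean 1.47 ± 0.55, limma adjusted p = 0.0268). The highest deposited −log10 p in a replicate was 3.07 at 8513537, 1.51 at 8512476 and 0.93 at 8506396. In MYH9 it was 1.15 at 36288730 and 1.67 at 36288319. No region of MYH14 had a peak in all 4 lists.

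Among the tropomyosins, 1 region of TPM3 was higher and 1 was lower by limma, of 12 tested. The higher share was 8.33%, below the 21.1% of all regions, of which 1.81% were lower. The higher one, chr1:154158910-154159003, had log2 folds of 2.00, 1.81, 2.32 and 1.00 (mean 1.78 ± 0.56, SD, n = 4, limma adjusted p = 0.0175). Its deposited −log10 p was only 0.43, 0.96, 0.90 and 0 in replicates 1 to 4. The lower one, chr1:154156589-154156664, had -1.59, -0.48, -1.32 and -1.59 (mean -1.24 ± 0.52, SD, n = 4, limma adjusted p = 0.0395). The deposited fold was thus below 0 in each replicate, and its −log10 p was 0, as for every negative fold in the lists. Tested against a log2 fold of 1, both calls were lost (limma adjusted p = 0.199 and 0.874). The 2 regions lie 33.1 and 35.5 kb from the start of the span. None of the 2 tested regions of TPM1, the 3 of TPM4 or the 10 of ACTN1 passed by limma. Their highest means were 1.12 ± 0.76 in TPM1 (adjusted p = 0.0902), 1.25 ± 0.96 in TPM4 (adjusted p = 0.104) and 1.00 ± 1.15 in ACTN1 (adjusted p = 0.217).

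**Figure D4:**
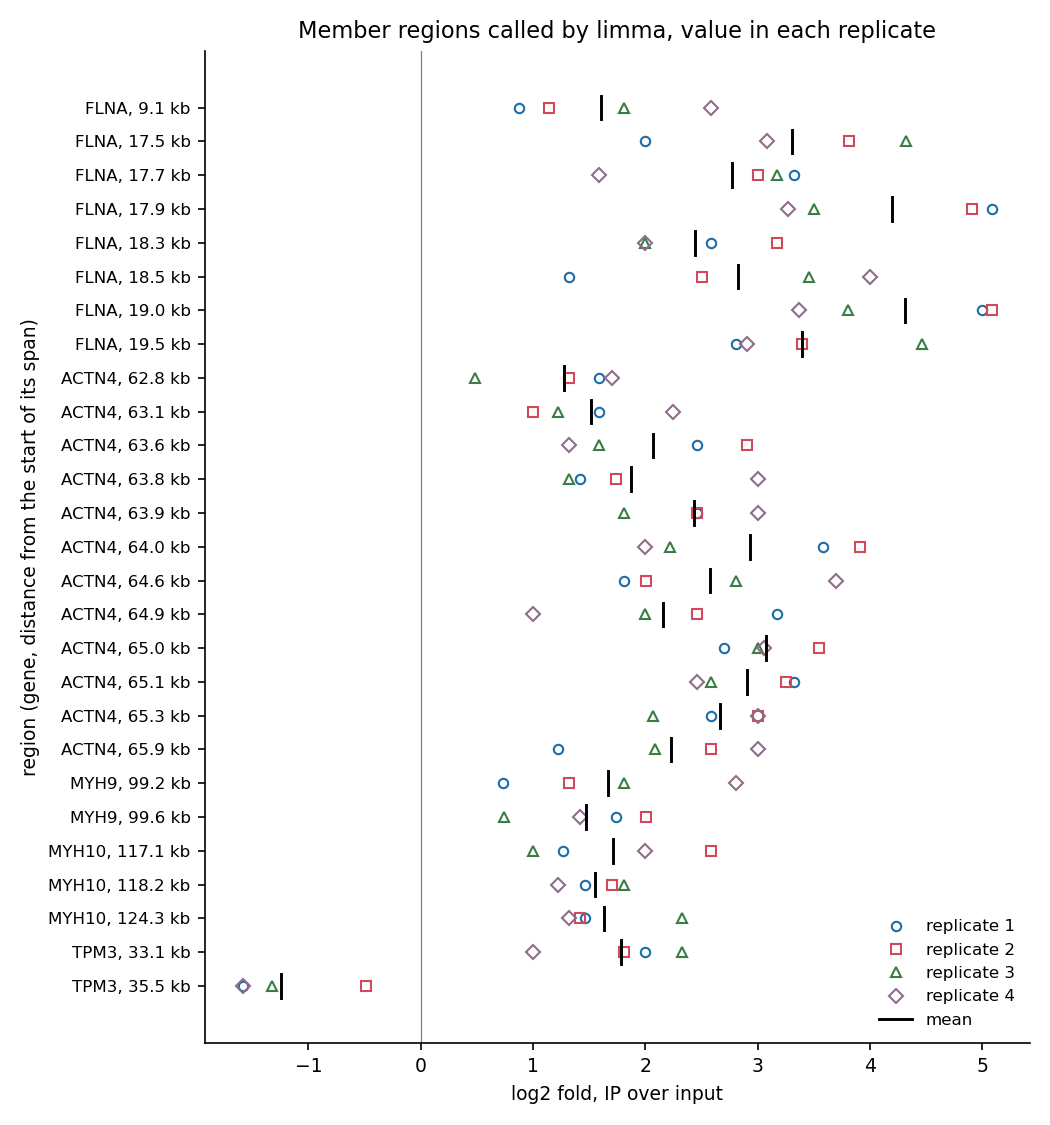
The 27 regions of the 9 genes called by limma (adjusted p at most 0.05), each labelled by gene and distance of the region from the start of the gene span, with the log2 fold of IP over input in each of the 4 replicates and their mean as a black mark. The 26 higher regions lie above 0 in every replicate, and the 1 lower region, in TPM3, lies below 0 in every replicate.

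Position along the genes was described without a test. Each span was cut into 5 equal parts from its start, and the share of called peaks above a log2 fold of 0.5 was taken over the 4 lists. In FLNA it was 88.7% of 53 peaks in the fourth part, and in ACTN4 it was 89.7% of 87. MYH10 had 55.4% and 59.6% in its last 2 parts against 18.6% to 29.5% in the earlier 3, and MYH9 had 59.8% in the last part against 28.3% to 41.9% before it. Over the 4145 genes with at least as many called peaks as TPM4 the share ran from 31.0% in the first part to 34.4% in the last. In TPM4 none of the 10 peaks of the last part was above 0.5.

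No enriched peak lay at a start site. A called peak touched the first 50 bases after a start site in all 4 lists in ACTN4, in MYH10 and at an inner start of TPM3. In ACTN4, at chr19:38647687-38647770, the log2 folds were -0.59, 0.26, -0.36 and -0.32. In TPM3, at chr1:154183100-154183194, they were 1.32, 0.88, 0.00 and 1.87 (mean 1.02 ± 0.79, SD, n = 4, limma adjusted p = 0.119).

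Of the other genes of actomyosin, a list of 52 was chosen by role (actins, myosin light chains and their kinases and phosphatase, further crosslinkers and tropomyosin partners), and 46 with a known strand were analysed. They had 5621 called peaks, and 5 of the 46 held a region enriched in all 4 replicates. Such a region was present in 4.58% of the 4145 genes above and 1.94% of the 11969 with any called peak. Neither set is matched to the 46 in called peaks, which ran from 12 to 506 per gene over the 4 lists. ACTG1 and DBN1, among the 5, had 62 and 61, fewer than the 66 that the 4145 genes required. MPRIP, which targets myosin phosphatase to actin, had log2 folds of 5.57, 5.54, 5.41 and 5.36 at chr17:17162829-17163296. DBN1, encoding the actin-binding drebrin, had a mean of 5.02 ± 0.58 at chr5:177459724-177460287 (SD, n = 4). ACTG1, encoding gamma-actin, had 3.90 ± 0.53 at chr17:81511618-81511731. MYO18A, an unconventional myosin, had 3.77 ± 0.57 at chr17:29116809-29117160, and MYL6, the essential light chain of nonmuscle myosin II, had 3.51 ± 0.77 at chr12:56161007-56161247 (SD, n = 4 each). SPTAN1 and SPTBN1, the nonerythroid spectrins, held an enriched peak in some lists, and the remaining 39 held none. In total 7 of the 46 held an enriched peak in any list, against 17.3% of the 4145 genes and 7.94% of the 11969. By limma 60 of the 256 tested regions of this list were higher, 23.4% against 21.1% of all regions, and 3 were lower, with a median mean log2 fold of 0.55 against 0.50. MPRIP, MYO18A and MYL6 held 16, 11 and 6 of the 60.

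MYL6, whose product sits on the heavy chains, had 3, 1, 2 and 3 enriched peaks of 17, 16, 15 and 18 called in replicates 1 to 4, while MYH9, MYH10 and MYH14 had none. The light chain genes MYL12A and MYL12B, with 19 and 12 called peaks over the 4 lists, also had none. MYL9 was not analysed for lack of a known strand.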

How the data were processed

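The authors deposited 1 headerless peak list per IP library, each against the input of its number. Its deposited values were read as −log10 p and as log2 fold of IP over input, from their ranges and from the −log10 p being 0 wherever the log2 fold was negative. Per the submitters' processing notes, UMI-tools 1.1.1, cutadapt 3.2, STAR 2.7.7a, hg38 and GRCh38.p13 were used. The peak caller, the scaling and the p-value test are not given in the sources used here. Read counts were not used here, so the depth behind each fold is unknown.

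Spans came from RefSeq (GRCh38.p14) and strands from its start-site table. No exons or genome were at hand, so exon, intron and UTR were not assigned. Values were computed with Python 3.11.15, pandas 2.3.3 and limma 3.58.1 (R 4.3.3), with an intercept-only fit and eBayes without trend, two-sided. The fit was also run on simulated normal values. These lack the tied folds of the lists, so that run is no check of the calls given here. The limma tests take the adjusted p over all 49493 regions.

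The members, lists and thresholds were chosen with earlier results of these data known. By rule, the regions named were those enriched in at least 3 replicates, for a member with none in all 4 the tested region with the highest mean, and lower regions. Regions enriched in fewer replicates and the other limma calls were named after their values were seen. Other thresholds, summaries, fits and left-out replicates were tried as alternatives.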

Additional observations from a re-analysis of the deposited data

Results flagged for a closer look

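Of 31 groups of 4 replicate values looked at, 1 had a sample far from the other 3. In the TPM1 region at chr15:63061132-63061217 replicate 4 had a log2 fold of -0.000497, while the other replicates lay between 1.32 and 1.59. Such a gap occurs by chance in about 1 of 20 groups. The region did not pass by limma (adjusted p = 0.0902).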

How the results depend on the processing

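Enriched peaks per replicate (5.5) came to 3.25 with a −log10 p of at least 5, to 1.75 with a fold limit of 4 alone (log2, no p), and, as an alternative added after seeing the data, to 1.5 without FLNA. With that fold limit of 4 alone, the enriched share was 0.487%, the sharing between replicates 18.5% and the regions enriched in all 4 replicates 0. None of these was computed over all called peaks at that limit. The sharing was 100% when every called peak was allowed as partner. With peaks of at least 30 nt the median log2 folds were 0.25 in MYH9, 0.17 in MYH10, 1.20 in ACTN4, 2.38 in FLNA and 0.066 in TPM3. Tested against a log2 fold of 1, limma called 10 of 82 regions higher (5.60% of all regions) and 0 lower. With regions kept only where the −log10 p reached 1 in some replicate there were 0 lower, which the filter itself fixes, since it drops regions below input. It called 6 higher without FLNA and ACTN4, an alternative added after seeing the data. Leaving out 1 replicate at a time gave 4.33 to 6.33 enriched peaks, shares of 1.17% to 1.73%, sharing of 66.3% to 75.2%, 2 to 4 regions enriched throughout, 0 to 5 regions higher by limma and 0 lower. The smallest adjusted p over all regions was then 0.0484 to 0.0507. Over the 11 named regions, 59 of 92 alternatives kept direction and side of the threshold, and 33 kept the direction only. The 59 include all 8 alternatives of each of the ACTN1, TPM1 and TPM4 regions, which had no call to lose. All 33 were lost calls of the regions that limma had called. No enriched or called value changed sign. Medians close to 0 did, within the spread of the replicates: leaving out 1 replicate gave -0.17 to 0.000562 in TPM1, -0.11 to 1.62e-05 in TPM4 and -0.000197 to 0.000562 in MYH9, MYH10, MYH14, ACTN1 and TPM3. An added fold limit just under 3, at which 8-fold peaks count in every list, changed no member count. The cause of each shift was not tested, beyond the fewer samples left. No paired analysis was possible because every value in the lists is itself a ratio of an IP to its own input, and there is no second condition to pair it with. The planned share of enriched regions with GCATG and its 3 alternatives were not run, since no genome was at hand. Without read counts, the precision of a single fold is unknown.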
